A study of Mus musculus with 6 samples.

Results

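The genes described here are those of hepatic lipogenesis, triglyceride synthesis and lipid droplets, followed across the livers of mice fed a control diet or a fraction of Boswellia serrata. A list of 37 genes was used, and a gene was included where the array held a probe set annotated with its symbol alone. Of the 37 genes, 35 had such a probe set, out of 12393 genes of the array with one, and Slc25a1 and Agpat2 were not analysed here. Where a gene had several probe sets, the one with the highest mean log2(signal + 16) over all arrays was taken. A filter on dim probe sets left 33 of the 35 genes for testing, out of 9209 genes, and Cidea and Cidec were too dim to be tested.

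All 6 arrays carried liver total RNA of Swiss-Webster mice, an outbred stock. The control group had 2 arrays of mice on the control diet. The other groups had 2 arrays each, of mice whose diet held 1% of fraction 1, a hexane fraction, or of fraction 2, a methanol fraction, for 21 days. The labels name no genetic change, and do not give the sex or age of the mice or whether an array stands for 1 mouse or a pool, so the p-values reflect array-to-array spread alone, which may be technical.

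Liver makes fatty acids from cytosolic citrate. ATP citrate lyase and acetyl-CoA carboxylase supply acetyl-CoA and malonyl-CoA, fatty acid synthase joins them into palmitate, and desaturases and elongases modify the chain. Acyltransferases and the lipin phosphatases then build diacylglycerol and triglyceride, which is stored in droplets coated by perilipins and CIDE proteins or is hydrolysed by lipases. The insulin-responsive factor SREBP-1c and the glucose-responsive factor ChREBP drive many of these genes.

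The 6 arrays had close overall brightness, with trimmed means of 499.53 to 499.939 array units, and correlated with each other at r = 0.934 to 0.971 on the log2 scale. Control replicate 1 and fraction 2 replicate a were hybridized and scanned on another day than the other 4 arrays. Control replicate 2 had the highest 3′ to 5′ actin ratio, which grows as RNA degrades, at 3.87 against 2.13 to 2.64 elsewhere. The 8 hepatocyte markers all passed the filter on dim probe sets, with summed signals of 167754 and 191016 in the controls, 161795 and 144467 after fraction 1, and 139716 and 133744 after fraction 2. The 3 exocrine pancreas markers measured also passed it, and their sums differed within each group: 14540 and 10447 in the controls, 5887 and 18735 after fraction 1, and 19367 and 9949 after fraction 2. In bulk liver, fewer cells of a type and less RNA per cell cannot be told apart.

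The first comparison asks what the hexane fraction did to these genes in liver. No member passed the test after fraction 1. The phosphatase genes Lpin1 and Lpin2 and the fatty acid binding gene Fabp4 stood above the controls in both arrays, and the regulator gene Srebf1, the droplet coat gene Plin2 and the elongase genes Elovl2 and Elovl5 stood below them. Of the 3 genes of fatty acid synthesis, Acaca stood at a log2 difference of -0.67, Acacb at -0.31 and Fasn at 0.04. With limma, 0 of 33 members had an adjusted p under 0.05, against 0.712% of all 14755 probe sets tested. At an unadjusted p under 0.05, limma gave 7 members (21.2%), with a background of 12.4%. The lowest adjusted p of a member was 0.142, for Lpin2. Both fraction 1 arrays lay outside the control range for 17 members (51.5%; background 40.9%), 6 of them higher (18.2%; background 18.8%) and 11 lower (33.3%; background 22.1%). No member reached a 2-fold difference of the group means (log2 difference of 1 in size; background 3.73%). For 24 of 33 members (72.7%; background 64.6%) the 95% interval of the difference lay within a 2-fold change either way. The log2 difference was above 0 for 14 of 33 members (42.4%; background 47.2%), with a median of -0.03 for the members and -0.02 for all probe sets tested.

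Control replicate 1 bore on the count of calls in this comparison. Without it the control group is 1 array, assumed to vary like the others, and the spread comes from the fraction arrays alone. In that fit limma called 2 members, Lpin1 at a log2 difference of 1.52 (adjusted p = 0.0227) and Plin2 at -1.04 (adjusted p = 0.0483). Without control replicate 2, again with 1 control array, no member was called, and the same differences were 0.25 for Lpin1 and -0.38 for Plin2. The median of the members was -0.12 without control replicate 2.

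Fraction 2 was set against the same 2 control arrays, so its values are not independent of those above. No member passed the test after fraction 2 either. Acaca, which encodes the cytosolic acetyl-CoA carboxylase, and Thrsp, which encodes the Spot 14 protein of lipogenic tissues, stood below the controls in both arrays, and Gpam and Agpat3, acyltransferase genes of glycerolipid assembly, stood slightly above. With limma, 0 of 33 members had an adjusted p under 0.05, against a background of 0.108%, and the lowest adjusted p of a member was 0.610, for Thrsp. At an unadjusted p under 0.05 limma gave 2 members, Acaca and Thrsp (6.06%; background 6.95%). The groups did not overlap for 9 members (27.3%; background 35.2%), 2 of them higher (6.06%; background 14.8%) and 7 lower (21.2%; background 20.4%). Acaca alone reached a log2 difference of 1 in size (3.03%; background 2.1%), and without fraction 2 replicate b its value was -0.70. The 95% interval lay within a 2-fold change either way for 26 of 33 members (78.8%; background 67.7%). The log2 difference was above 0 for 17 of 33 members (51.5%; background 44.6%). The median of the members was 0.0040 and that of all probe sets was -0.04, and after centring each array on its median these became 0.12 and 0.07.

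Set against each other at the same dose and time, the fractions differed most in Lpin1, Plin2 and Srebf1. Lpin1 was 1.32 log2 units higher, Plin2 was 0.90 lower (log2 difference -0.90) and Srebf1 was 0.67 lower (-0.67) after fraction 1 than after fraction 2. With limma, 0 of 33 members had an adjusted p under 0.05, against a background of 0.0136%, and 6 members (18.2%; background 8.04%) had an unadjusted p under 0.05. These were Lpin1 and Lpin2, higher after fraction 1, and Elovl2, Elovl5, Srebf1 and Plin2, lower. The 4 fraction arrays did not overlap for 18 members (54.5%; background 46.8%), 8 higher (24.2%; background 25.4%) and 10 lower (30.3%; background 21.4%) after fraction 1. Lpin1 alone reached a log2 difference of 1 in size (3.03%; background 2.49%). The log2 difference was above 0 for 16 of 33 members (48.5%; background 52.3%). It was above 0 for 0 of 8 desaturase and elongase genes, also after quantile normalization or median centring, but Scd1, Fads1 and Elovl6 were close to 0, at -0.01, -0.03 and -0.02. Elovl6 turned above 0 with scan day (0.16) or chip lot (0.27) as a block, and Scd1, Elovl1 and Elovl6 did without fraction 1 replicate b, as did Elovl1 without fraction 2 replicate a and Elovl6 without fraction 2 replicate b. It was above 0 for 7 of 7 genes of glycerolipid assembly, also after quantile normalization. Dgat1 turned below 0 after median centring and without fraction 1 replicate b, Dgat2 did without fraction 1 replicate a, and other probe sets of Dgat2 and Gpam gave -0.22 and -0.03. For 22 of 33 members (66.7%; background 66.1%) the 95% interval lay within a 2-fold change either way, and for the rest a difference larger than that lay inside the interval.

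**Figure D1:**
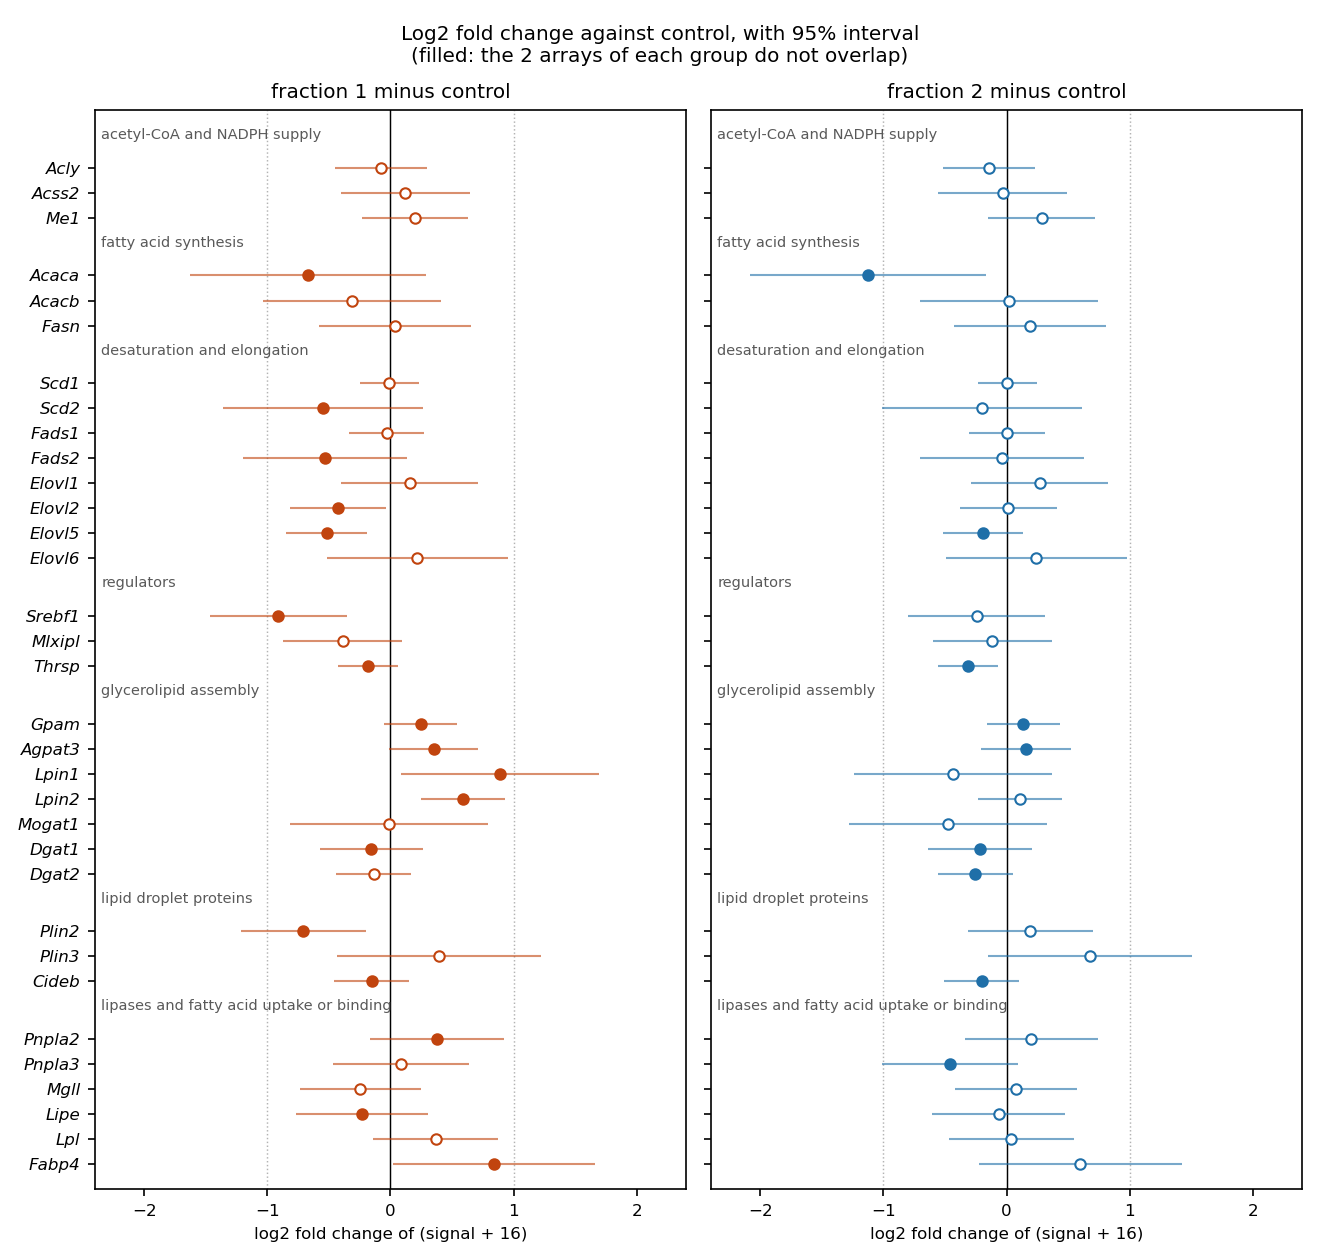
Log2 difference of each tested member from the control diet, with its 95% interval from limma, for fraction 1 and for fraction 2, with members grouped by role. Both panels use the same 2 control arrays, 0 marks no difference, and no member passed an adjusted p of 0.05.

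The main probe sets of the enzymes that supply acetyl-CoA and NADPH overlapped with the controls. Acly, which splits citrate into acetyl-CoA, had signals of 4696.9 and 3802.3 array units in controls 1 and 2, 4237.2 and 3796 after fraction 1 (a, b), and 3639.3 and 4038.8 after fraction 2 (a, b). The 3 groups overlapped, with log2 differences of -0.08 ± 0.16 (SE, n = 2 arrays a group) after fraction 1 and -0.14 ± 0.16 after fraction 2. Of its other tested probe sets, 1 gave -0.09 after fraction 1. The dimmest read 1078.3 and 480.4 in the controls, 409.8 and 424.4 after fraction 1, and 754.3 and 389.2 after fraction 2. Both fraction 1 arrays were below both controls on that probe set, at -0.77 (limma adjusted p = 0.492), and the controls differed more than 1.5-fold. Me1, the cytosolic malic enzyme that makes NADPH, read 5498.7 and 3847.3 in the controls, 4963.1 and 5615.6 after fraction 1, and 5288.5 and 5953.2 after fraction 2. Control replicate 2 was the lowest of the 6 arrays for Me1, and the groups overlapped. A dimmer probe set of Me1 differed in sign, at -0.36 against 0.20 after fraction 1, so the array gives no single direction for this gene. Acss2, which makes acetyl-CoA from acetate, differed from the controls by 0.12 and -0.03 log2 units after fractions 1 and 2.

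Of the 3 genes of fatty acid synthesis, only Acaca lay outside the control range in both fractions. Acaca had 197.4 and 139.2 array units in the controls, 79 and 121.2 after fraction 1, and 96.1 and 45.8 after fraction 2. All 4 fraction arrays were below both controls, and the fraction 2 arrays differed from each other by more than 1.5-fold. Its log2 difference was -0.67 ± 0.42 after fraction 1 (limma adjusted p = 0.575) and -1.13 ± 0.42 after fraction 2 (adjusted p = 0.662). With the scan day as a block the values were -0.34 and -1.13, and with 1 fraction 2 array left out the latter was -1.56 (without a) or -0.70 (without b). The signal of this probe set was below the array median (139.25 to 167.2 array units) in control replicate 2 and in the 4 fraction arrays.

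Fasn, the synthase that builds palmitate, showed how far the controls themselves were apart. Its signals were 6135.1 and 3166.4 in controls 1 and 2, 4743.6 and 4308.8 after fraction 1, and 4848.3 and 5242.6 after fraction 2. Every fraction array fell between the 2 control arrays, which differed 1.94-fold. The log2 difference was 0.04 ± 0.27 after fraction 1, with a 95% interval of -0.58 to 0.65, and 0.19 ± 0.27 after fraction 2. Without control replicate 2 the fraction 1 value was -0.44, and without control replicate 1 it was 0.51. Acacb, the mitochondrial carboxylase whose product restrains fatty acid oxidation, overlapped with the controls in both fractions.

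**Figure D2:**
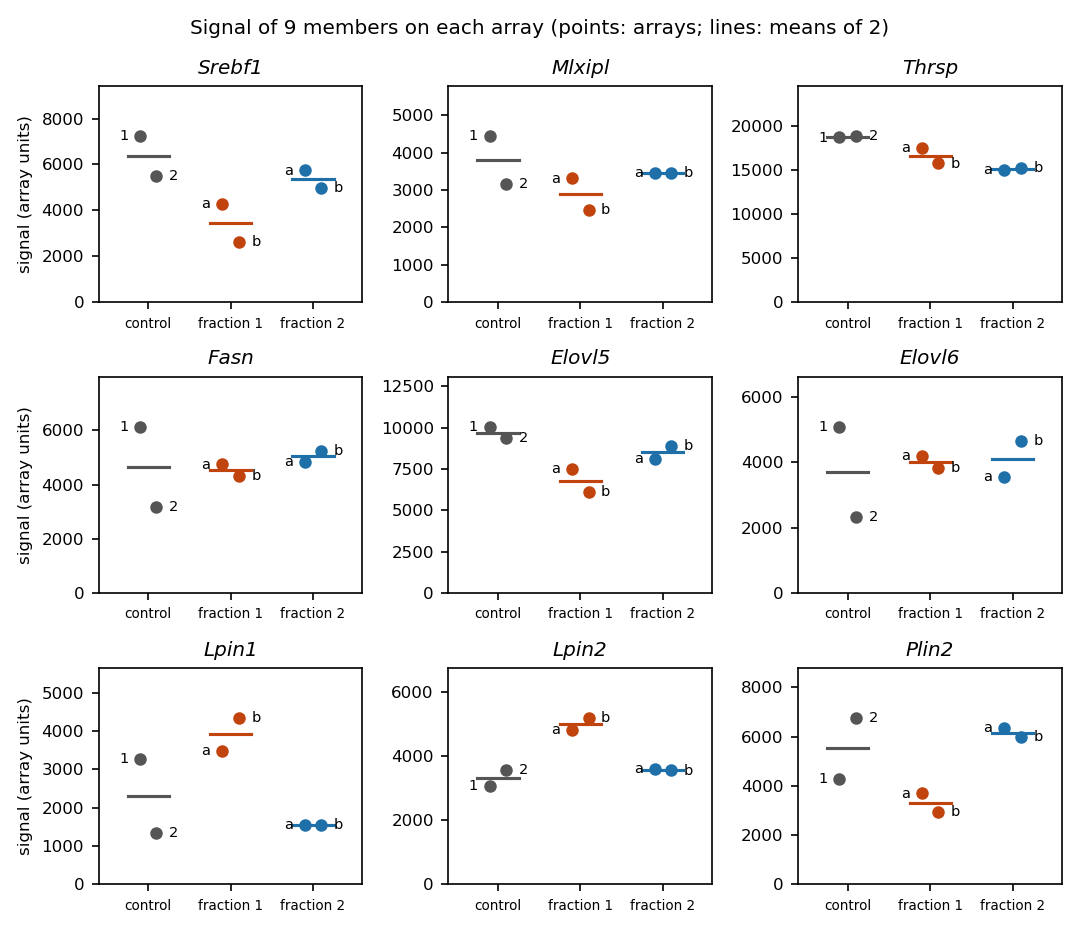
Signal in array units, on linear axes that start at 0, of 9 members in each of the 6 arrays, with control replicates 1 and 2 and fraction replicates a and b marked and a line at the group mean. The fraction arrays lie between the 2 controls for Fasn, the fraction 1 arrays are below all others for Srebf1, and they are above all others for Lpin1.

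Among the desaturases and elongases, the main Scd1 probe set did not separate from the controls. The elongases of polyunsaturated chains lay below the controls after fraction 1. Scd1, the main stearoyl-CoA desaturase of liver, read 14273 and 14120.6 in the controls, 14511.6 and 13726.1 after fraction 1, and 14342.8 and 14140.7 after fraction 2. These 6 values lay close together, and the 95% interval after fraction 1 was -0.25 to 0.23 log2 units. A dimmer Scd1 probe set gave log2 differences of 0.09 and 0.41 after fractions 1 and 2, neither past an adjusted p of 0.05 with limma. On it both fraction 2 arrays, at 3244.9 and 2351.4, were above both controls, at 2090.6 and 2059.8, and fraction 1 overlapped.

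Elovl5, which lengthens polyunsaturated fatty acids, had 10048 and 9352.5 array units in the controls, 7501.5 and 6092 after fraction 1, and 8128.5 and 8869.9 after fraction 2. Signals were lowest after fraction 1, the fraction 2 arrays came between, and no group overlapped with another. Its log2 difference was -0.52 ± 0.14 after fraction 1 (limma adjusted p = 0.171) and -0.19 ± 0.14 after fraction 2 (adjusted p = 0.800). A dimmer probe set of Elovl5 gave -0.63 after fraction 1 and 0.06 after fraction 2. Elovl2, which acts on longer polyunsaturated chains, read 2295.5 and 2065 in the controls, 1771.6 and 1469.3 after fraction 1, and 2175.4 and 2223.8 after fraction 2. Here the fraction 1 arrays were below the other 4, and the log2 difference from the controls was -0.43 ± 0.17 (limma adjusted p = 0.352).

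The other genes of this group did not separate in a single way. Elovl6, which takes palmitate to stearate, had 5086 and 2329.2 array units in the controls, 4191 and 3831.6 after fraction 1, and 3559.8 and 4654.4 after fraction 2. As with Fasn, all 4 fraction arrays fell between the controls, which differed 2.18-fold. Fads2, the delta-6 desaturase gene, differed from the controls by -0.53 after fraction 1 and -0.04 after fraction 2. Its value after fraction 1 ranged from -0.99 to -0.07 over the other ways of processing. A dimmer Fads2 probe set gave -0.18 after fraction 1 with overlapping groups. Fads1, the delta-5 desaturase gene, differed by -0.03 after fraction 1. Scd2 was dim in liver and differed by -0.55 and -0.20, and Elovl1, an elongase of saturated chains, differed by 0.16 and 0.27. Another Scd2 probe set, too dim to be tested, had both fraction 1 arrays above both controls, at 82.5 and 111.8 against 73.4 and 65.3. The array therefore gives no single direction for Scd2 after fraction 1.

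The 3 regulators all had log2 differences below 0 after each fraction, also after quantile normalization or median centring, except that Mlxipl after fraction 2 was 0.13 without control replicate 1 and on the larger scan day alone. Srebf1, which encodes SREBP-1, read 7247.6 and 5503.7 in the controls, 4293.4 and 2614 after fraction 1, and 5740.4 and 4961.2 after fraction 2. The fraction 1 arrays were the lowest of the 6 and differed from each other by more than 1.5-fold, and the fraction 2 arrays overlapped with the controls. The log2 difference after fraction 1 was -0.91 ± 0.24, with a 95% interval of -1.47 to -0.36 (limma adjusted p = 0.159). It was -0.76 with scan day as a block, -0.56 without fraction 1 replicate b and -1.27 without replicate a. The larger scan day alone, which holds only control replicate 2, gave -0.71. The annotation does not say whether this probe set separates the SREBP-1a and SREBP-1c transcripts.

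Mlxipl, which encodes ChREBP, had 4454.4 and 3156.4 array units in the controls, 3310.3 and 2470.7 after fraction 1, and 3460.4 and 3450.5 after fraction 2. The first fraction 1 array overlapped with the controls, and the log2 difference was -0.39 ± 0.21 (limma adjusted p = 0.515). Thrsp read 18705.1 and 18894.1 in the controls, 17477.7 and 15752.7 after fraction 1, and 14971.4 and 15254.3 after fraction 2, with no overlap between any pair of groups. Its log2 difference was -0.18 ± 0.11 after fraction 1 and -0.31 ± 0.11 after fraction 2, and its dimmer probe set gave -0.34 and -0.40. The 8 hepatocyte markers were also below the controls in both fraction 2 arrays (background 20.4%), by -0.19 to -0.47 log2 units. After fraction 1, 6 of the 8 were below both controls (background 22.1%), by -0.20 to -0.30, and 1 was above both (background 18.8%). The part of hepatocyte RNA in the Thrsp values was not tested.

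The E-box CACGTG, bound by ChREBP with its partner Mlx and by SREBP-1 among other factors, was searched on both strands of the 250 bases before the gene start in RefSeq promoters of build GRCm38.p6. It was present in 6 of the 29 members with a promoter entry, and in 6.86% of all 27025 genes with one (6.02% of 32851 promoters). The 3 windows below are of a regulator, an elongase and a phosphatase gene described here, read 5′ to 3′ on the plus strand, with the E-box in capitals. They lie at chr5:135089752-135089837, chr9:77917164-77917249 and chr17:71183483-71183531, in that order, all upstream of the annotated start.
Mlxipl: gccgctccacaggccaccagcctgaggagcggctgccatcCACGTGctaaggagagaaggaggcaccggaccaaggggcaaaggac
Elovl5: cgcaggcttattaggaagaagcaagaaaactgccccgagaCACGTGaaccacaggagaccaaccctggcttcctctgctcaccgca
Lpin2: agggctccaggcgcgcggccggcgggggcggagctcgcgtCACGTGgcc
The E-box began 98 bases before the start in Mlxipl, 161 in Elovl5 and 9 in Lpin2. The other members with the motif were Lipe, Mgll and Slc25a1. The genes with the motif did not share a direction on their main probe sets. After fraction 1, Lpin2 stood above the controls, Elovl5 and Lipe stood below them, and Mlxipl and Mgll overlapped with them. Another Mgll probe set lay below both controls, at -0.60. The CCAAT box, bound by NF-Y, was present in 15 of 29 members and in 37.5% of all genes with a promoter entry. The sterol regulatory element core CACCCCAC, bound by SREBPs, was present in 1 of 29 members, Gpam, and in 2.98% of all genes with a promoter entry. A match is a description of letters and not a binding site.

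Glycerolipid assembly held both lipin genes, which stood above the controls after fraction 1. Lpin1, a phosphatidic acid phosphatase that also acts as a transcriptional coactivator, read 3268.1 and 1342.9 in controls 1 and 2, 3488.4 and 4347.6 after fraction 1, and 1546.8 and 1549.4 after fraction 2. Both fraction 1 arrays were above both controls, narrowly so for control replicate 1, and both fraction 2 arrays fell between the controls. The log2 difference was 0.89 ± 0.35 after fraction 1 (limma adjusted p = 0.348), with a 95% interval of 0.08 to 1.69, and 1.32 ± 0.35 between the fractions (adjusted p = 0.430), with an interval of 0.52 to 2.13. A dimmer Lpin1 probe set gave 1.04 and 1.26 for the same differences. With scan day as a block the value after fraction 1 was 1.21. The larger scan day alone, with control replicate 2 as its only control, gave 1.52, and the value against control replicate 1 alone was 0.25.

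Lpin2, a phosphatase of the same family, separated more tightly. It had 3081.7 and 3576.5 array units in the controls, 4819.6 and 5206 after fraction 1, and 3611.9 and 3556 after fraction 2. On this probe set the fraction 1 arrays were above the other 4, which lay close together. Its log2 difference was 0.59 ± 0.15 after fraction 1, with a 95% interval of 0.25 to 0.93 (limma adjusted p = 0.142), and 0.11 ± 0.15 after fraction 2. The other Lpin2 probe sets gave 0.85 and 0.62 after fraction 1 and 0.56 and 0.23 after fraction 2, the 0.56 with both arrays above both controls. With scan day as a block the main one gave 0.54 after fraction 1.

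Gpam, the mitochondrial enzyme that commits glycerol-3-phosphate to glycerolipid, read 6359.9 and 6411.4 in the controls, 8000.5 and 7164.4 after fraction 1, and 7257.6 and 6789.3 after fraction 2. All 4 fraction arrays were above both controls, by a log2 difference of 0.25 ± 0.13 after fraction 1 (limma adjusted p = 0.495) and 0.14 ± 0.13 after fraction 2. Agpat3, an acyltransferase of the next step, also lay above both controls in all 4 fraction arrays, by 0.35 ± 0.16 and 0.16 ± 0.16.

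The final step, from diacylglycerol to triglyceride, is catalysed by unrelated enzymes encoded by Dgat1 and Dgat2. Dgat1 had 722.7 and 780.9 array units in the controls, 629.7 and 719.8 after fraction 1, and 641.1 and 647.7 after fraction 2. All 4 fraction arrays were below both controls, with log2 differences of -0.15 ± 0.18 and -0.22 ± 0.18. Dgat2 read 9444 and 10229 in the controls, 9755.2 and 8182.5 after fraction 1, and 8239.1 and 8235.8 after fraction 2, so only fraction 2 lay apart, at -0.25 ± 0.13 (limma adjusted p = 0.749). Another Dgat2 probe set gave 0.11 after fraction 2 with overlapping groups, so the array gives no single direction for Dgat2. Mogat1, a monoacylglycerol acyltransferase gene, was dim and differed from the controls by -0.01 and -0.48. As for Thrsp, the hepatocyte markers lay lower after fraction 2 (background 20.4%), and 6 of 8 did after fraction 1 (background 22.1%). Their part in the Dgat1 and Dgat2 values was not tested.

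**Figure D3:**
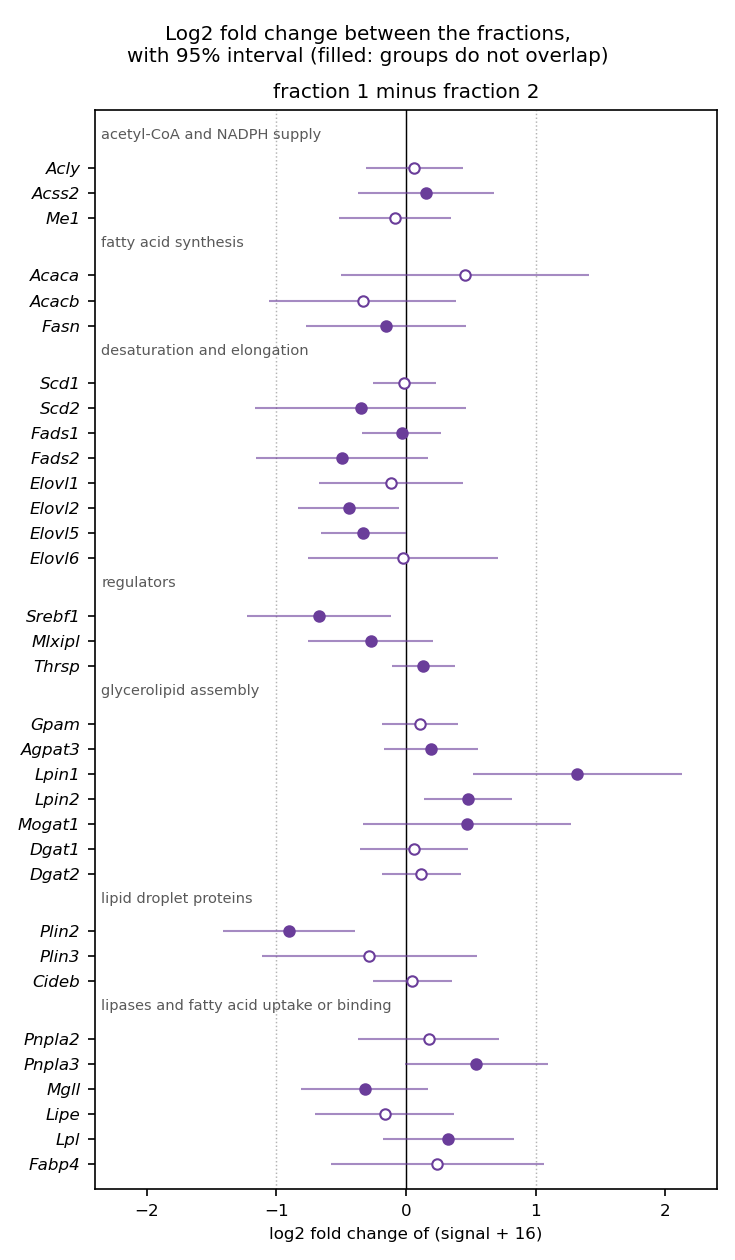
Log2 difference between fraction 1 and fraction 2 for each tested member, with its 95% interval from limma, grouped by role. Lpin1 at 1.32 and Plin2 at -0.90 lie farthest from 0 on either side, and no member passed an adjusted p of 0.05.

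On the lipid droplet, the coat gene Plin2 was lowest after fraction 1. Plin2, whose protein covers droplets in most cells and is stabilised by them, read 4290.5 and 6763.8 in controls 1 and 2, 3682.9 and 2932.6 after fraction 1, and 6351 and 5978.9 after fraction 2. Plin2 was lower in the fraction 1 arrays than in the other 4, and the fraction 2 arrays fell between the controls. The log2 difference was -0.71 ± 0.22 after fraction 1, with a 95% interval of -1.22 to -0.20 (limma adjusted p = 0.224), and -0.90 ± 0.22 between the fractions, with an interval of -1.41 to -0.40 (adjusted p = 0.382). It was -0.85 after fraction 1 with scan day as a block. The larger scan day alone, with control replicate 2 as its only control, gave -1.04, and the value against control replicate 1 alone was -0.38. Hepatic stellate cells also store lipid in droplets, and the sums of their 6 markers were 6468 and 5406 in the controls, 3882 and 2986 after fraction 1, and 5338 and 4182 after fraction 2. Of the 5 stellate markers tested, 3 lay below both controls in both fraction 1 arrays (background 22.1%), with the lowest limma adjusted p, 0.0523, for Reln. Their part in the Plin2 value was not tested.

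The other droplet genes did not share a direction. Plin3, a perilipin that moves between cytosol and droplet, read 693 and 314.9 in the controls, 773.4 and 497 after fraction 1, and 837 and 686.4 after fraction 2. Its log2 differences were 0.39 ± 0.36 and 0.68 ± 0.36, the latter the highest of the members after fraction 2. The groups overlapped, with control arrays that differed 2.20-fold. Cideb, the CIDE protein of hepatocytes that acts in lipoprotein lipidation, was below both controls in all 4 fraction arrays, by -0.15 ± 0.13 and -0.20 ± 0.13. So were 6 of 8 hepatocyte markers after fraction 1 (background 22.1%) and all 8 after fraction 2 (background 20.4%). Their part in the Cideb values was not tested. Cidea, a CIDE gene of brown fat and steatotic liver, read 30.8 and 60.6 in the controls, 42 and 10.5 after fraction 1, and 8.5 and 12.4 after fraction 2. Cidec, which fuses droplets in white fat and fatty liver, stayed between 53.5 and 62.3 array units in all 6 arrays. Both genes were below the filter on dim probe sets, so the array sets no fold for them.

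Lipases and genes of fatty acid uptake or binding did not share a direction. Pnpla2, which encodes the triglyceride lipase ATGL, read 945.5 and 800 in the controls, 948.3 and 1355.4 after fraction 1, and 1149.6 and 873.1 after fraction 2. The fraction 1 arrays were above both controls, the lower of them by under 3 array units, and the log2 difference was 0.38 ± 0.24 (limma adjusted p = 0.579). Pnpla3, a droplet lipase gene under SREBP-1c control, had 295.1 and 219.5 array units in the controls, 265.2 and 276.6 after fraction 1, and 205.8 and 158.6 after fraction 2. Only fraction 2 lay apart from the controls, at -0.46 ± 0.24 (limma adjusted p = 0.749). Lipe, which encodes hormone-sensitive lipase, differed by -0.23 and -0.07, and Mgll, the monoacylglycerol lipase gene, differed by -0.24 and 0.08. The other tested Mgll probe sets gave -0.60 and -0.33 after fraction 1, the -0.60 with both arrays below both controls. After fraction 2 they gave 0.09 and 0.63, with overlapping groups.

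Lpl, the lipoprotein lipase of adipose and muscle capillaries, read 603.6 and 766.3 in the controls, 1028.3 and 756.6 after fraction 1, and 677.1 and 722.9 after fraction 2. The groups overlapped, with log2 differences of 0.37 ± 0.22 and 0.04 ± 0.22. A dimmer Lpl probe set read 151.7 and 145 in the controls, 223.3 and 185.7 after fraction 1, and 196.3 and 206 after fraction 2. There all 4 fraction arrays were above both controls, at 0.42 and 0.40 (limma adjusted p = 0.525 and 0.777). Fabp4, the fatty acid binding protein of adipocytes, macrophages and endothelium, read 419.8 and 205.4 in the controls, 495.4 and 590.4 after fraction 1, and 343.7 and 600.6 after fraction 2. The fraction 1 arrays were above both controls and the fraction 2 arrays overlapped with them. Its log2 difference after fraction 1 was 0.84 ± 0.36 (limma adjusted p = 0.389), and 0.89 with scan day as a block. It was 0.35 without control replicate 2 and 1.33 without control replicate 1.

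A dimmer Fabp4 probe set separated further after fraction 1. It read 131.3 and 132 in the controls, 351.4 and 549.2 after fraction 1, and 116.4 and 292.8 after fraction 2, a log2 difference of 1.63 after fraction 1 (limma adjusted p = 0.129). Of the genes listed as white adipocyte markers, Retn differed by 0.03, Car3 by -0.28 and Pparg by 0.45 log2 units after fraction 1, all with overlapping groups. Car3 read 13907.1 and 17217.3 array units in the controls, far brighter than the other listed markers. Its value was therefore not taken as a measure of adipocytes. Pparg read 76.8 and 17.1 array units in the controls, 37.3 and 91.2 after fraction 1, and 254.2 and 109.9 after fraction 2. After fraction 2 it differed by 1.73, with both arrays above both controls (limma adjusted p = 0.671), and Retn and Car3 overlapped. Pparg passed the filter on dim probe sets only through the fraction 2 arrays. Its 1.73 is therefore set against control values below the filter and gives no reliable size of change. Adipoq and Lep were too dim to be tested, with Adipoq at 59.6 and 60.3 array units in the controls, 106.8 and 54.1 after fraction 1, and 44.5 and 61.5 after fraction 2. Summed macrophage markers were 9365 and 10370 in the controls, 8218 and 8966 after fraction 1, and 9183 and 9743 after fraction 2. Summed endothelial markers were 4978 and 6512, 4200 and 3971, and 4730 and 5159 in the same order. Of the 10 macrophage markers, 3 lay below both controls after fraction 1 (background 22.1%), and Marco lay above them, at 0.46 (background 18.8%). Of the 6 endothelial markers, 3 lay below both controls (background 22.1%). The part of these cell types in the Fabp4 value was not tested.

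The spread between the control arrays was itself uneven over these genes. Of the 33 members, 9 differed at least 1.5-fold between the controls (27.3%; background 26.9%). Of these, 8 were higher in control replicate 1 (24.2%; background 11.4%), namely Acss2, Acacb, Fasn, Fads2, Elovl6, Lpin1, Plin3 and Fabp4, and Plin2 alone was higher in control replicate 2 (3.03%; background 15.5%). Fads2 differed 1.90-fold and Lpin1 2.43-fold between the controls. Among the fraction 1 arrays 2 members differed that far, Srebf1 and Plin3 (6.06%; background 11.4%), and among the fraction 2 arrays 4 did, Acaca, Acacb, Mogat1 and Fabp4 (12.1%; background 13.6%). The controls also differed in scan day, in chip lot and in the actin ratio, and the part of these in the gaps was not tested.

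**Figure D4:**
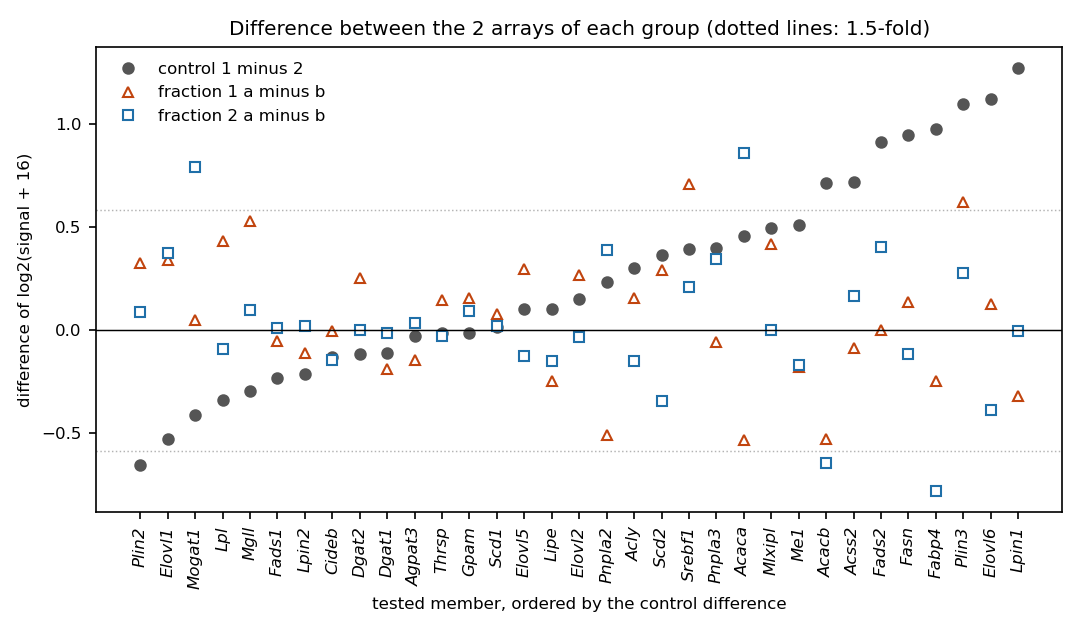
Log2 difference between the 2 arrays of each group for every tested member, control replicate 1 minus 2 and replicate a minus b of each fraction, with lines at a 1.5-fold gap. The control pair has 9 members past the lines, 8 of them higher in replicate 1, against 2 members in fraction 1 and 4 in fraction 2.

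Further genes of the pathway were read from a list of 77 names, chosen with earlier results of these data known. Of these, 59 had a probe set and 53 were tested. The shares that follow describe the list and are no test of it. After fraction 1, limma called 1 of the 53 (1.89%; background 0.712%), and it was lower (background 0.346%). Elovl3, an elongase of very long saturated and monounsaturated chains that cycles daily in liver, read 670 and 693.3 array units in the controls, 228 and 218.8 after fraction 1, and 475.6 and 268.4 after fraction 2. Both fractions were below the controls, and after fraction 1 Elovl3 fell by 1.54 ± 0.27 on the log2 scale (limma adjusted p = 0.049975, just under the threshold). That call held in 5 of 17 other ways of processing, with adjusted p from 0.0393 to 0.341 and log2 differences from -1.61 to -1.28. No gene of the list was called after fraction 2 or between the fractions, where limma gave 11 of 53 (20.8%) each at an unadjusted p under 0.05 (background 6.95% and 8.04%). After fraction 1 it gave 19 of 53 (35.8%; background 12.4%).

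In the lists where none was called, the genes with the smallest p after fraction 1 were Insig2, Cd36 and Pgd. Insig2, which retains SREBP precursors in the endoplasmic reticulum, read 1224.9 and 1427 in the controls, 2880.4 and 3096.4 after fraction 1, and 3552.7 and 2438.1 after fraction 2. All 4 fraction arrays were above both controls, by log2 differences of 1.17 ± 0.21 (limma adjusted p = 0.0531) and 1.15 ± 0.21 (adjusted p = 0.202). Cd36, the fatty acid translocase, had 121.1 and 98.7 array units in the controls, 314.3 and 206.6 after fraction 1, and 463.2 and 326.9 after fraction 2, also above both controls in all 4 fraction arrays. Its log2 differences were 1.11 ± 0.28 (limma adjusted p = 0.143) and 1.69 ± 0.28 (adjusted p = 0.154). Pgd, an NADPH-producing enzyme of the pentose phosphate pathway, differed by 0.80 ± 0.24 after fraction 1 (limma adjusted p = 0.199).

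The smallest p between the fractions was that of G0s2, an inhibitor of ATGL on the droplet. G0s2 read 586.8 and 1370.1 in the controls, 380.3 and 334.4 after fraction 1, and 892.5 and 1372.2 after fraction 2. The fraction 1 arrays were below the other 4, at a log2 difference of -1.59 ± 0.37 from fraction 2 (limma adjusted p = 0.344), and the control arrays differed more than 1.5-fold. Acot1, a cytosolic acyl-CoA thioesterase gene, had 339 and 393.7 array units in the controls, 992.5 and 743.3 after fraction 1, and 690.8 and 925 after fraction 2. Both fractions lay above the controls, by 1.20 and 1.10 log2 units, and Acot1 had the smallest p of the further enzymes after fraction 2 (limma adjusted p = 0.347). Among the further regulators, Irs1, an adaptor of the insulin receptor, had the smallest p between the fractions, at a log2 difference of -0.64 (limma adjusted p = 0.531).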

How the data were processed

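Mouse liver RNA was measured on 6 Affymetrix MOE430A arrays. The deposited values are linear signal intensity, 1 per array for each of 22690 probe sets. Their trimmed means were nearly equal between arrays, so they were taken as already scaled and not scaled again. Scan day and chip lot also come from the file headers. For the probe summary, the software is not given in the sources used here. Probe sets with 1 symbol (20393), several (691) or none (1606) were counted from the platform annotation. Values were taken as log2(signal + 16), which understates differences of dim probe sets. The 14755 probe sets at or above the 40th percentile of their array on at least 2 arrays, with 64 control probe sets left out, were fitted with limma 3.58.1 in R 4.3.3, 1 mean per group over all 6 arrays, with Benjamini-Hochberg adjustment over all of them. The fit leaves 3 residual degrees of freedom, and the number of arrays limits the precision. A log2 difference is the difference between group means of log2(signal + 16), and its sign can differ from that of the mean signals. For Fasn it was 0.04 after fraction 1, with mean signals of 4526.2 after fraction 1 and 4650.75 in the controls. Members and lists were chosen with earlier results of these data known. Members past an adjusted p of 0.05, members with separate groups at least 2-fold apart and a fixed set of members are given per array, and of the further pathway genes those called or, where none was, the smallest p per list. Alternatives were other scalings, filters and pseudocounts, scan day and chip lot as blocks, a replicate block, other probe sets and leaving out each array. The fit was tested on simulated data. Python 3.11.15 and matplotlib 3.10.9 drew the figures.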

Additional observations from a re-analysis of the deposited data

How the results depend on the processing

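No member was called after fraction 2 under any of 19 alternatives. After fraction 1 the count of called members with limma was 0 to 2 when 1 array at a time was left out, and 2 only without control replicate 1. Between the fractions it was 0 in each fit that left out 1 array. The replicate letters a and b do not pair the fractions (r = 0.0301 over 14755 probe sets for the a minus b differences, and fraction 2 replicate a was scanned on another day). With the letters as a replicate block on the 4 fraction arrays, with 1 residual degree of freedom, 2 members were called between the fractions, Lpin1 (adjusted p = 0.0259) and Plin2 (adjusted p = 0.0387), among 75 probe sets called. The median log2 difference of the members ranged from -0.12 to 0.016 after fraction 1, from -0.16 to 0.0078 after fraction 2 and from -0.024 to 0.028 between the fractions when 1 array was left out. Median centring gave 0.12 after fraction 2 and -0.10 between the fractions. The next brightest probe set of the 16 members that have one gave 0.13 and -0.15. Between the fractions, quantile normalization gave -0.039, scan day as a block gave 0.053 and chip lot as a block gave 0.054. On their main probe sets, 20, 15 and 20 of 33 members kept their sign for fraction 1, fraction 2 and the difference between the fractions. These counts cover 17, 17 and 18 alternatives and leave out the other probe sets. Some members counted as keeping their sign changed it there, such as Dgat2 after fraction 2 (0.11) and Gpam between the fractions (-0.03).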
